A study of Homo sapiens with 21 samples.

Results

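The ATP-binding cassette (ABC) transporter genes were described across 21 human cancer cell lines read on Illumina BeadChip expression arrays. They were picked out by name, as every gene listed as ABC followed by a subfamily letter from A to G and a number. The rule used no measured value, but the members were chosen with earlier results of these data known. The rule found 47 genes, each listed for all 21 lines, among 37715 genes on the array design used for the hepatocellular carcinoma (HCC) lines and 34235 on that used for the others. Subfamily A held 13 of them, B 9, C 12, D 4, E 1, F 3 and G 5. Of these, ABCA11 (now ABCA11P) and ABCC13 are annotated as transcribed pseudogenes.

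All 21 lines were grown without treatment, and no line carried an allele or agent given in the labels. The HCC group held 11 lines, Hep3B, HLF, Huh-1, JHH-4, JHH-6, PLC/PRF/5, SK-HEP-1, SNU-423, SNU-475, SNU-739 and SNU-886. The lung group held 5 lines, Calu-1, Calu-3, Malme-3M, NCI-H1299 and NCI-H596, and the pancreatic group 5, AsPC-1, BxPC-3, Capan-1, Capan-2 and MIA-PaCa-2. Each line was read once, so an error or p-value below measures the spread between lines, never that of repeat arrays. SK-HEP-1 is known as a line of endothelial origin, and Malme-3M as a melanoma line that was grown from a metastasis in the lung.

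ABC transporters couple the hydrolysis of ATP to the movement of lipids, sterols, bile salts, drugs and conjugates across membranes. In the liver, hepatocytes place several of them on the canalicular membrane, where ABCB11 exports bile salts, ABCB4 turns phosphatidylcholine to the bile side, ABCG5 with ABCG8 exports sterols and ABCC2 exports conjugates such as bilirubin glucuronides. ABCC3 and ABCC4 work on the opposite, blood-facing side of the cell, and ABCB1, ABCC1 and ABCG2 are best known as drug efflux pumps of cancer cells.

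Promoter windows are shown for the 3 genes on which the results below turn most. They run from 250 bases before to 50 after the annotated start and come from RefSeq on GRCh38.p14, which holds a window for 35 of the 47 genes. In the first 2 the capitals mark matches on either strand to the TATA box TATAAA, the GC box GGGCGG, the E-box CACGTG, the nuclear receptor core AGGTCA or the antioxidant response core TGACNNNGC. In the third they mark the bases that the window of ABCG5 shares with that of ABCG8. The windows lie at chr10:99782390-99782689 (plus strand) for ABCC2, chr9:104928106-104928405 (minus strand) for ABCA1 and chr2:43838790-43839089 (minus strand) for ABCG5.
ABCC2 promoter: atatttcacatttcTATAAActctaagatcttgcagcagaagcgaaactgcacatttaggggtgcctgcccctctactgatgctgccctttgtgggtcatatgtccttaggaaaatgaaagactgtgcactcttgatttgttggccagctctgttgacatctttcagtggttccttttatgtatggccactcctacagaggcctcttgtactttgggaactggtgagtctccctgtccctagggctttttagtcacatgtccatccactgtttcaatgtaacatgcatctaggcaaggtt
ABCA1 promoter: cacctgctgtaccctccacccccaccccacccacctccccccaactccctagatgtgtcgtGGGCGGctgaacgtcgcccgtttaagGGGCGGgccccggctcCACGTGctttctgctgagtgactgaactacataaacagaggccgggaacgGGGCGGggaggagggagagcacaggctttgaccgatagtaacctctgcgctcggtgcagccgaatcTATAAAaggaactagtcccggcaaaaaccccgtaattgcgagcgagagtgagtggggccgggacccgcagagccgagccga
ABCG5 promoter: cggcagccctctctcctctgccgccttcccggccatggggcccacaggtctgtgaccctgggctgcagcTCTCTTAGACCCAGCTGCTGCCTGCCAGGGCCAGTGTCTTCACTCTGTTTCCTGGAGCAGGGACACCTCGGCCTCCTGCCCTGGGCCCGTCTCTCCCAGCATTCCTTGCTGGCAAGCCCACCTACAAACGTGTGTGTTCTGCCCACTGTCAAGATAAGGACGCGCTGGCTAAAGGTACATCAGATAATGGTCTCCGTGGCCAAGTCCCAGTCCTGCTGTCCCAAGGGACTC
The ABCC2 window held 1 TATAAA, whose first base lay 236 bases before the start, and none of the other letters. TATAAA stood in 11.5% of all 35116 windows of this length. The ABCA1 window held TATAAA 31 bases before the start, 3 copies of GGGCGG (45% of windows) and 1 CACGTG (7.26% of windows). The nuclear receptor and antioxidant response cores, found in 13.8% and 13.3% of windows, matched in none of the 3, and no motif overlapped another. ABCG5 and ABCG8 lie head to head, with starts 132 bases apart and 231 bases common to both windows, and the ABCG5 window matched none of the 5 motifs.

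Levels are log2 intensities after background correction, with the HCC lines normalized apart from the others. Beside each level stands the deposited detection p-value, which sets the signal against the negative controls of the array and is listed in steps of 0.01 except in SNU-475. A gene is called detected in a line where that p is under 0.05. Levels set side by side across the HCC lines and the others are on scales normalized separately. Of all listed genes, 24.9% were detected in Hep3B, 32.6% to 35.1% in the other HCC lines and 40.8% to 43.7% in the lung and pancreatic lines. Hep3B stood apart: the 95th percentile of its raw signal was 4.78 times the control mean, against 10.1 to 26.3 times for the remaining HCC lines. Quantile normalization put this narrower signal on the scale of the other arrays, so a high level in Hep3B can rest on less raw signal. For ABCC5 a raw signal of 612.06 in Hep3B became a level of 10.47, and 886.55 in Huh-1 became 9.79. The hepatocyte genes APOB and AFP were not detected in Hep3B. Of 8 hepatocyte marker genes all were detected in Huh-1 and PLC/PRF/5, 5 in SNU-886, 4 in Hep3B, 3 in SK-HEP-1 and none in HLF or SNU-739. The lung markers NKX2-1, SFTPA1, SFTPB and SFTPC were detected in no lung line. Of the melanocyte markers, MLANA, TYR and DCT were undetected in Malme-3M and PMEL stood at 7.39 (detection p = 0), while its CDH1 was at 11.20. PMEL was detected in 5 of the other 9 lung and pancreatic lines. Calu-3 had no detected CDH1 and VIM at 15.23, and Capan-2 had neither KRT19 nor KRT7 detected. For the counts of calls, some single calls and the HCC ranges, values without some or all of these 4 libraries are also given. Levels and detection in them are given as labelled.

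Members were detected in 484 of 987 pairs of gene and line. The HCC lines with fewest detected members were Hep3B and SK-HEP-1, each with 17 of 47, and those with most were Huh-1 and SNU-886, each with 28. The other lines ran from 20 in Calu-3 to 26 in Calu-1. ABCA1, ABCC10, ABCD3, ABCF1 and ABCF3 were among the members detected in all 21 lines, and 5 more were detected in all but 1. ABCA7, ABCA8, ABCB4, ABCB5, ABCD2 and ABCG8 were detected in none. Detection was found in HCC lines alone for 7 genes, ABCA5, ABCA12, ABCB11, ABCC11, ABCC12, ABCC13 and ABCG5, and in the other lines alone for 3, ABCA2, ABCA10 and ABCC8. Since the HCC lines were read on a different array design, tissue and design cannot be told apart in any such contrast. The share of all listed genes detected in 1 set only is not given here. The counts of 7 and 3 are therefore not read as a trait of the family. ABCA5, ABCC11 and ABCC8 each rested on 1 line.

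**Figure D1:**
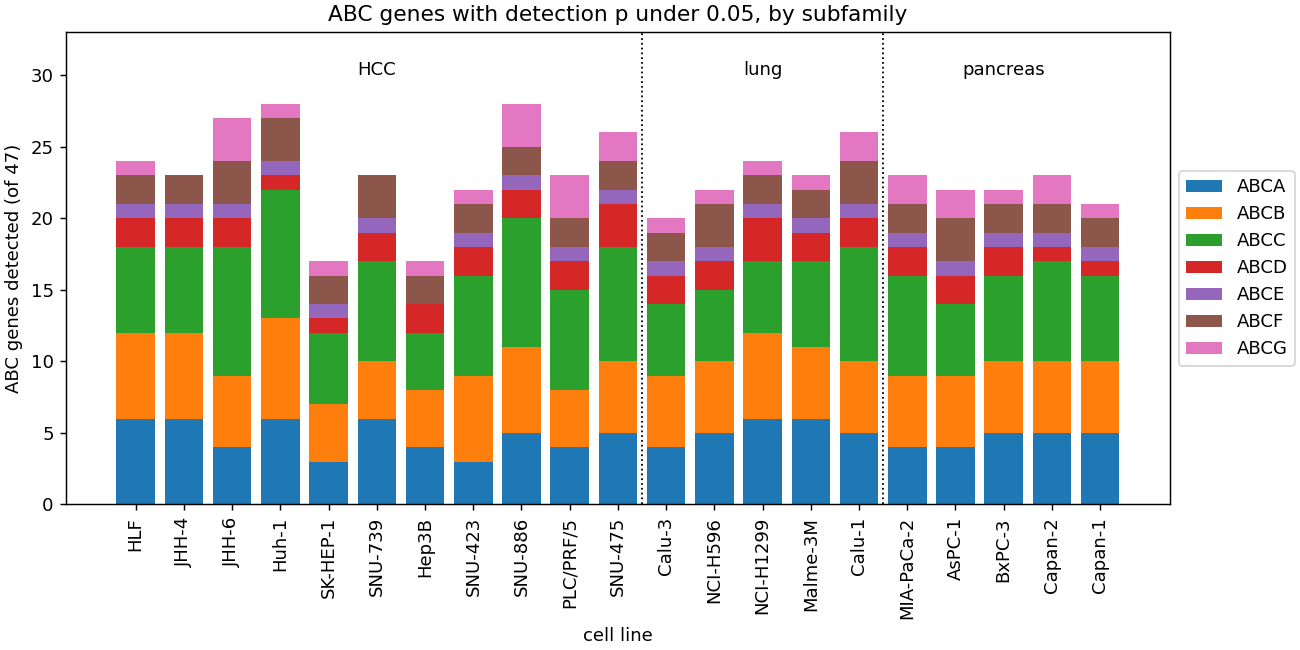
Number of ABC genes with a detection p under 0.05 (vertical axis, of 47) in each cell line (horizontal axis), stacked by subfamily, with dotted lines between the HCC, lung and pancreatic lines. The bars run from 17 in Hep3B and SK-HEP-1 to 28 in Huh-1 and SNU-886.

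Level and detection did not always go together. In 29 pairs, over 10 genes, the level was above 7 without detection, and 15 of these were ABCF2, a translation factor of the ABCF type. ABCF2 stood at 10.56 in BxPC-3 with a detection p of 0.12, while AsPC-1 was detected at 9.07. The widest gaps outside ABCF2 were ABCA9 and ABCA8 in MIA-PaCa-2, at 9.39 and 9.11 with detection p-values of 0.14 and 0.23. The upstream rule that merged a gene's probes was not given in the sources used here, and the reason for these pairs was not tested.

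The canalicular pump ABCC2 was detected in every HCC line. Its level was lowest in SNU-739 at 5.68 (detection p = 0.02), had a median of 9.22 in JHH-4 and was highest in Huh-1 at 12.34 (detection p = 0). PLC/PRF/5 followed at 11.02, JHH-6 at 10.69, SNU-886 at 10.44 and SNU-475 at 10.08. SNU-739 was thus the low line of this group, while Huh-1 and PLC/PRF/5, the lines with all 8 hepatocyte markers, held its highest levels. The other lines did not keep to the order of these markers. HLF had none of the 8 detected, as SNU-739 did, but its ABCC2 stood at 9.14. JHH-6, with 1 marker detected, lay above both SNU-886 with 5 and Hep3B with 4, the last at 8.98. A link between ABCC2 and these markers was not tested. With 1 array per line the order of neighbouring lines carries no error. In RNA of a whole culture, fewer expressing cells and less RNA per cell cannot be told apart. Among the lung lines ABCC2 was detected in Calu-1 alone, at 10.51, with the others between 4.98 and 5.10 (detection p 0.47 to 0.66). Among the pancreatic lines AsPC-1 stood at 8.75 and MIA-PaCa-2 at 8.01, both detected, and Capan-2, BxPC-3 and Capan-1 at 4.98, 4.79 and 4.78, not detected. The groups overlapped, since Calu-1, AsPC-1 and MIA-PaCa-2 lay within the HCC range and the other 7 lines below it.

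For tests of HCC against the other lines all 21 arrays were normalized together on the shared symbols, and the HCC mean was compared with the average of the other tissues' means. ABCC2 averaged 9.96 ± 1.75 (log2, SD, n = 11) in HCC, 5.92 ± 2.35 (SD, n = 5) in lung and 6.02 ± 1.82 (SD, n = 5) in pancreatic lines. The log2 difference was 3.99 (standard error, SE, 0.79; limma, adjusted p = 0.00107). It was taken against values that were below detection in 7 of the 10 other lines, so no fold is given. Over 23 other ways of processing or choosing lines, the alternatives named below, the difference ran from 2.18 to 4.51 and passed in each, with adjusted p-values from 0.000102 to 0.0165. The contrast is one of both tissue and array design.

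Over the family, 36 of the 47 genes were detected in at least 3 of the 21 lines and were tested. Of these, 6 were higher in HCC lines, where 6.77% of all genes tested were, and 2 were lower, where 12.3% were (limma, adjusted p under 0.05). Together they made 22.2% of the members tested against 19% of all genes, so the share of changed members was near the background. The higher genes were ABCC12, ABCA1, ABCC2, ABCG5, ABCA4 and ABCB1, and the lower ones ABCA2 and ABCA9. The median log2 difference was 0.13 over the members and -0.02 over all genes tested, with 26 members positive and 10 negative. An unadjusted p under 0.05 was reached by 10 members and by 32.2% of all genes. Lines of HCC and of the other tissues did not overlap for 1 member, ABCC12, and for 3.2% of all genes. Without Hep3B, Capan-2, Malme-3M and Calu-3, 4 members were called higher and none lower, and ABCC2, ABCA1 and ABCC12 were called higher in both fits. The split depends on scaling: with the sets normalized apart and set side by side, the median of all genes moved to -0.78, and 4 members were called higher and 14 lower. With the deposited processed values that median was -0.51, and 3 members were called higher and 14 lower.

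**Figure D2:**
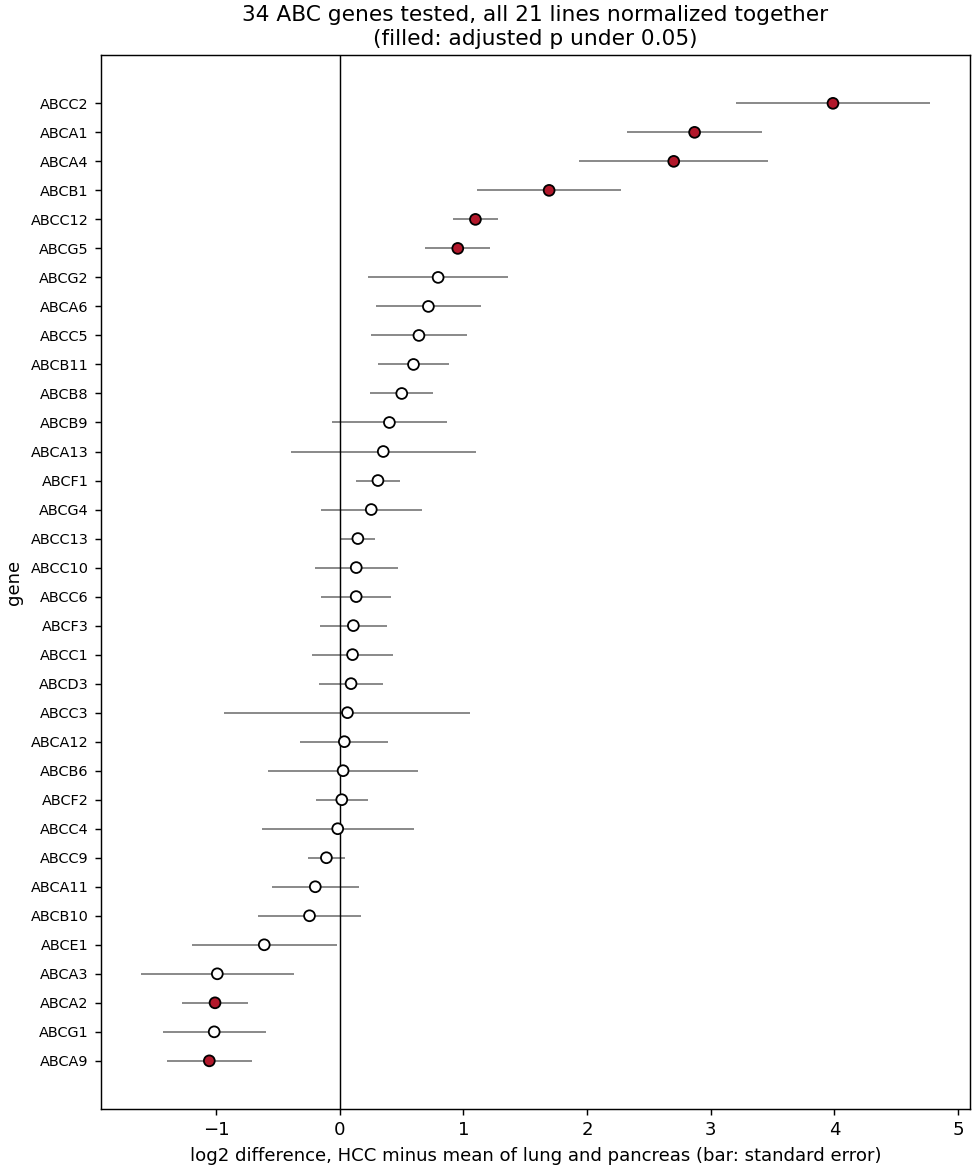
Log2 difference between HCC lines and the mean of the lung and pancreatic group means (horizontal axis) for 34 of the 36 ABC genes tested (vertical axis), with standard errors as bars and filled points for an adjusted p under 0.05. ABCC2 at 3.99, ABCA1 at 2.87 and ABCA4 at 2.70 lie farthest to the right.

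Among the lipid transporters of subfamily A, ABCA1, which loads cholesterol and phospholipid onto apolipoprotein A-I, was detected in all 21 lines. In HCC lines it ranged from 8.53 in SNU-739 over a median of 10.77 to 12.04 in SNU-423, each with a detection p of 0. In lung lines it stood at 7.32 in NCI-H596, 7.77 in Calu-1, 8.53 in Malme-3M, 9.26 in Calu-3 and 11.11 in NCI-H1299. In pancreatic lines it stood at 6.30 in Capan-2 (detection p = 0.02), 7.33 in Capan-1, 9.31 in AsPC-1, 10.47 in BxPC-3 and 10.53 in MIA-PaCa-2. All HCC lines but SNU-739 lay at 10.45 or above, a level that NCI-H1299, BxPC-3 and MIA-PaCa-2 also reached, so the groups overlapped. The log2 difference of the jointly normalized values was 2.87 (SE 0.55), or 7.31-fold higher in HCC (limma, adjusted p = 0.000791). It passed in all 23 alternatives, over which the difference ran from 1.62 to 3.17. ABCG1, which passes cholesterol on to lipoprotein particles, ran the other way in detection, with 3 of 11 HCC lines and all 10 others.

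ABCG1 levels lay between 4.67 in PLC/PRF/5 and 5.59 in SNU-475 in HCC lines, near the background of the array. In the others they ran from 5.66 in NCI-H1299 to 7.74 in NCI-H596 among lung lines and from 5.76 in Capan-2 to 10.44 in AsPC-1 among pancreatic lines. The jointly normalized log2 difference of -1.02 (SE 0.42) did not pass (limma, adjusted p = 0.0947), and it was -0.63 without AsPC-1 (limma, adjusted p = 0.111) and -0.53 against lung lines alone (limma, adjusted p = 0.581). It passed at -1.19 without Capan-2 (limma, adjusted p = 0.0474). It also passed at -1.63 with the sets normalized apart and at -0.87 with the deposited processed values. Both genes are known targets of the liver X receptors, of which NR1H3 was detected in all 21 lines. NR1H3 was not called between HCC and the other lines, with a log2 difference of -0.39 (limma, adjusted p = 0.705).

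ABCA4, a retinoid lipid flippase known from photoreceptors, had the widest range of any member in HCC lines, 8.81 on the log2 scale, and a percentile of 99.3 among 15514 genes detected in at least 3 HCC lines. Huh-1 stood at 14.26 (detection p = 0) and Hep3B at 8.49 (detection p = 0). The remaining 9 HCC lines lay between 5.45 in SNU-423 and 7.16 in JHH-6, and SNU-423 and SK-HEP-1, both with a detection p of 0.05, missed detection. In the other tissues it was detected in Malme-3M alone, at 6.13 (detection p = 0.03), with BxPC-3 at 6.12 (detection p = 0.05) and the others between 4.83 and 5.07. ABCA4 was called higher in HCC lines, at a log2 difference of 2.70 (limma, adjusted p = 0.0167). The fold was 5.83 with pancreatic lines, none of them detected, raised to their arrays' lowest detected signals. Undetected lung and HCC lines kept their own values in that fold, so it is not a lower bound. After joint normalization the HCC mean was 7.70, and only Huh-1, at 14.59, and Hep3B lay above it. No fit without Huh-1 is given here. The ABCA4 call was lost in 7 of 23 alternatives, among them no background correction at a log2 difference of 1.55. Another was the fit without Capan-2, Malme-3M and Calu-3 (limma, adjusted p = 0.0561).

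ABCA2, a lipid transporter of endosomes and lysosomes, was detected in no HCC line and in 9 of the 10 others. HCC levels ran from 4.58 in SNU-739 over a median of 4.97 to 6.06 in Huh-1, with detection p-values of 0.08 to 0.72. Lung lines lay at 6.40 in Calu-1, 6.41 in NCI-H1299, 6.48 in NCI-H596, 6.72 in Calu-3 and 7.73 in Malme-3M, and pancreatic lines from 6.08 in BxPC-3 to 7.62 in MIA-PaCa-2, whose detection p of 0.05 fell just outside the threshold. ABCA2 was called lower in HCC lines, at a log2 difference of -1.01 (limma, adjusted p = 0.0104). With HCC lines raised to their arrays' lowest detected signals, it was at least 1.84-fold lower. The call was lost in 3 of 22 alternatives (limma, adjusted p up to 0.0868), among them the fit without Capan-2, Malme-3M and Calu-3 (limma, adjusted p = 0.0534). ABCA9, a member of the ABCA cluster on chromosome 17, was detected in 3 HCC, 4 lung and 3 pancreatic lines. After joint normalization it averaged 5.43 ± 0.70 (SD, n = 11) in HCC, 6.07 ± 0.38 (SD, n = 5) in lung and 6.89 ± 1.26 (SD, n = 5) in pancreatic lines. It was called lower in HCC, at a log2 difference of -1.05 (limma, adjusted p = 0.0359). Most HCC lines were below detection, so no fold is given. That call was lost in 7 of 22 alternatives (limma, adjusted p up to 0.384). Among them were the fits without Calu-3, without NCI-H596 or without MIA-PaCa-2, where the log2 difference was -1.01, -0.98 and -0.79 (limma, adjusted p = 0.0623, 0.0644 and 0.0538). Its highest value, 9.39 in MIA-PaCa-2, was not detected (detection p = 0.14).

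ABCA13, a very large member of unsettled function, was among the most variable genes of the lung and pancreatic lines. It was detected in NCI-H596 at 10.57, in BxPC-3 at 8.77 and in AsPC-1 at 7.46, each with a detection p of 0, and lay between 4.59 and 5.67 in the other 7 lines. In HCC lines 6 of 11 were detected, with JHH-4 highest at 8.60 and HLF lowest at 4.53. ABCA3, which fills the surfactant bodies of lung alveolar cells, was detected in 7 HCC, 4 lung and 4 pancreatic lines, and its log2 difference of -0.99 did not pass (limma, adjusted p = 0.284). ABCA6 stood at 9.22 in Huh-1, while no other line of the 21 passed 6.65. ABCA5, ABCA8 and ABCA10, neighbours of ABCA6 and ABCA9 in the same cluster, were detected in 1, 0 and 2 lines.

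**Figure D3:**
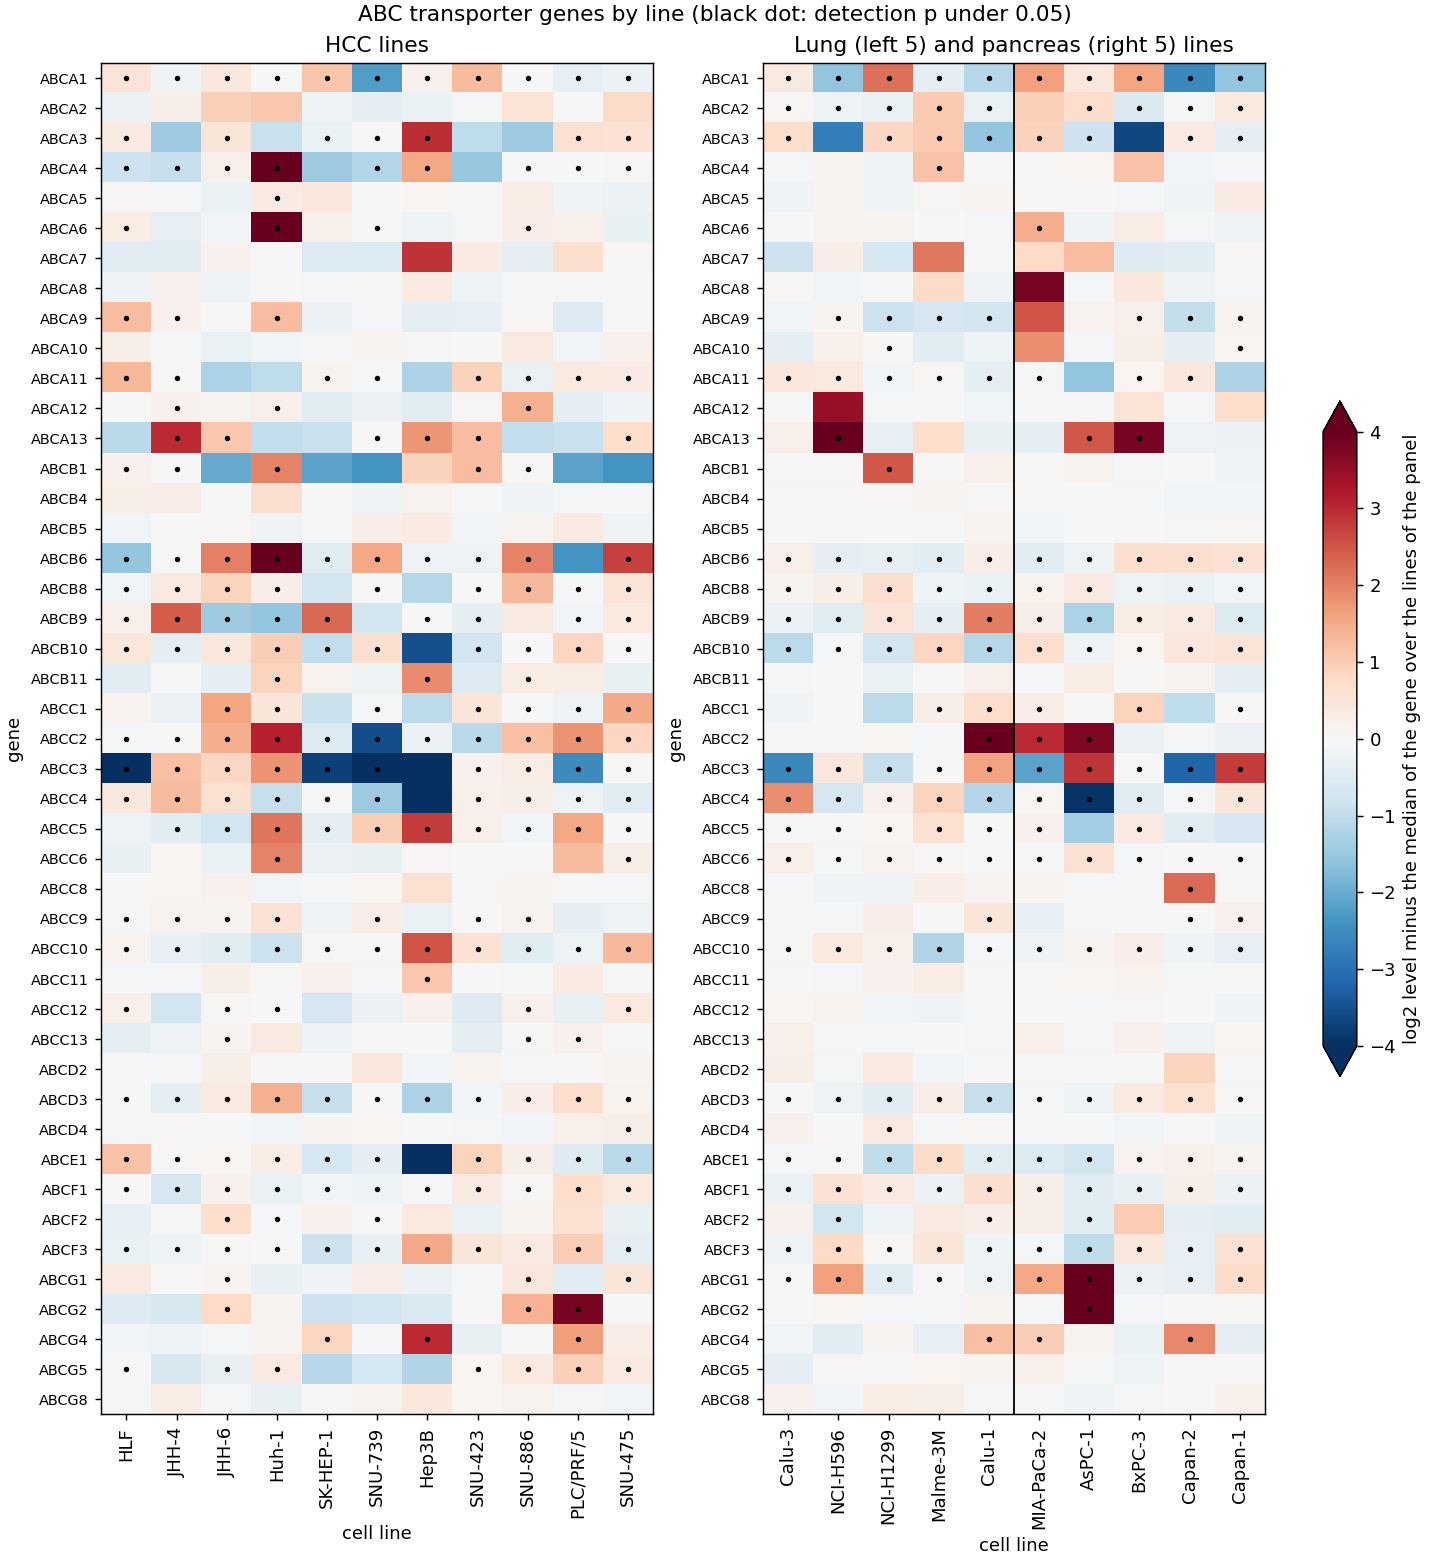
Log2 level of 45 of the 47 ABC genes (vertical axis) in each line (horizontal axis), as the difference from the median of that gene over the lines of the panel; the HCC panel and the lung and pancreas panel were normalized apart, and black dots mark detection. ABCA4 and ABCA6 in Huh-1, ABCC4 and ABCE1 in Hep3B and ABCG2 in PLC/PRF/5 and AsPC-1 stand out.

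In subfamily B, ABCB1 encodes P-glycoprotein, the drug efflux pump. In HCC lines it was detected in Huh-1 at 9.04, SNU-423 at 8.31, HLF at 7.23, SNU-886 at 7.10 and JHH-4 at 7.06, each with a detection p of 0. Hep3B had a level of 7.98 but a detection p of 0.48, and the remaining 5 HCC lines lay between 4.66 and 5.04. Of the other lines NCI-H1299 was detected at 7.53, and the remaining 9 lay between 4.91 and 5.25. The HCC lines thus fell into detected and undetected lines, and the undetected ones other than Hep3B overlapped the other tissues. After joint normalization Hep3B stood at 8.51 and NCI-H1299, the highest line of the other tissues, at 7.14. ABCB1 was called higher in HCC lines (limma, adjusted p = 0.047), by 2.89-fold with pancreatic lines raised to their arrays' lowest detected signals. Undetected lung and HCC lines kept their own values in that fold. The call was lost in 20 of 23 alternatives, with adjusted p-values from 0.0257 to 0.233. It was lost without each single lung or pancreatic line other than NCI-H1299 (limma, adjusted p = 0.0626 to 0.0769) and without Hep3B (limma, adjusted p = 0.068).

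ABCB4, the phosphatidylcholine floppase that neighbours ABCB1 on chromosome 7, was detected in none of the 21 lines, including the 6 with detected ABCB1. Its level was highest in Huh-1 at 5.29 (detection p = 0.09), with all other lines between 4.46 and 4.99. ABCB11, the bile salt export pump, was detected in 3 HCC lines, Hep3B at 7.13 and Huh-1 at 6.14, both with a detection p of 0.02, and SNU-886 at 5.53 (detection p = 0.04). PLC/PRF/5 missed detection at 5.55 (detection p = 0.05), and no lung or pancreatic line was detected. The difference did not pass (limma, adjusted p = 0.151), although it did at a log2 difference of 0.56 under median scaling (limma, adjusted p = 0.0262). NR1H4, the bile acid receptor FXR and a known activator of ABCB11, was detected in 7 HCC lines, including all 3 with ABCB11, and in NCI-H1299.

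The organelle members of subfamily B were widely detected. ABCB6, a transporter linked to porphyrins, was among the 5 members with the widest range in HCC lines, from 5.37 in PLC/PRF/5 (detection p = 0.07) over 7.76 to 11.79 in Huh-1. In lung lines it varied by less, from 8.79 in Malme-3M to 9.49 in Calu-1, and in pancreatic lines from 8.83 in MIA-PaCa-2 to 9.91 in BxPC-3, each with a detection p of 0. ABCB8 and ABCB10, transporters of the inner mitochondrial membrane, were detected in 19 and 20 lines. ABCB10, which serves haem synthesis, ran from 7.91 in SK-HEP-1 to 9.90 in Huh-1 in the HCC lines with detection and was missed in Hep3B at 5.40 (detection p = 0.13). ABCB9, a lysosomal peptide transporter, was detected in 9 HCC lines and all 10 others, highest in Calu-1 at 10.97, and ABCB5 in none.

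**Figure D4:**
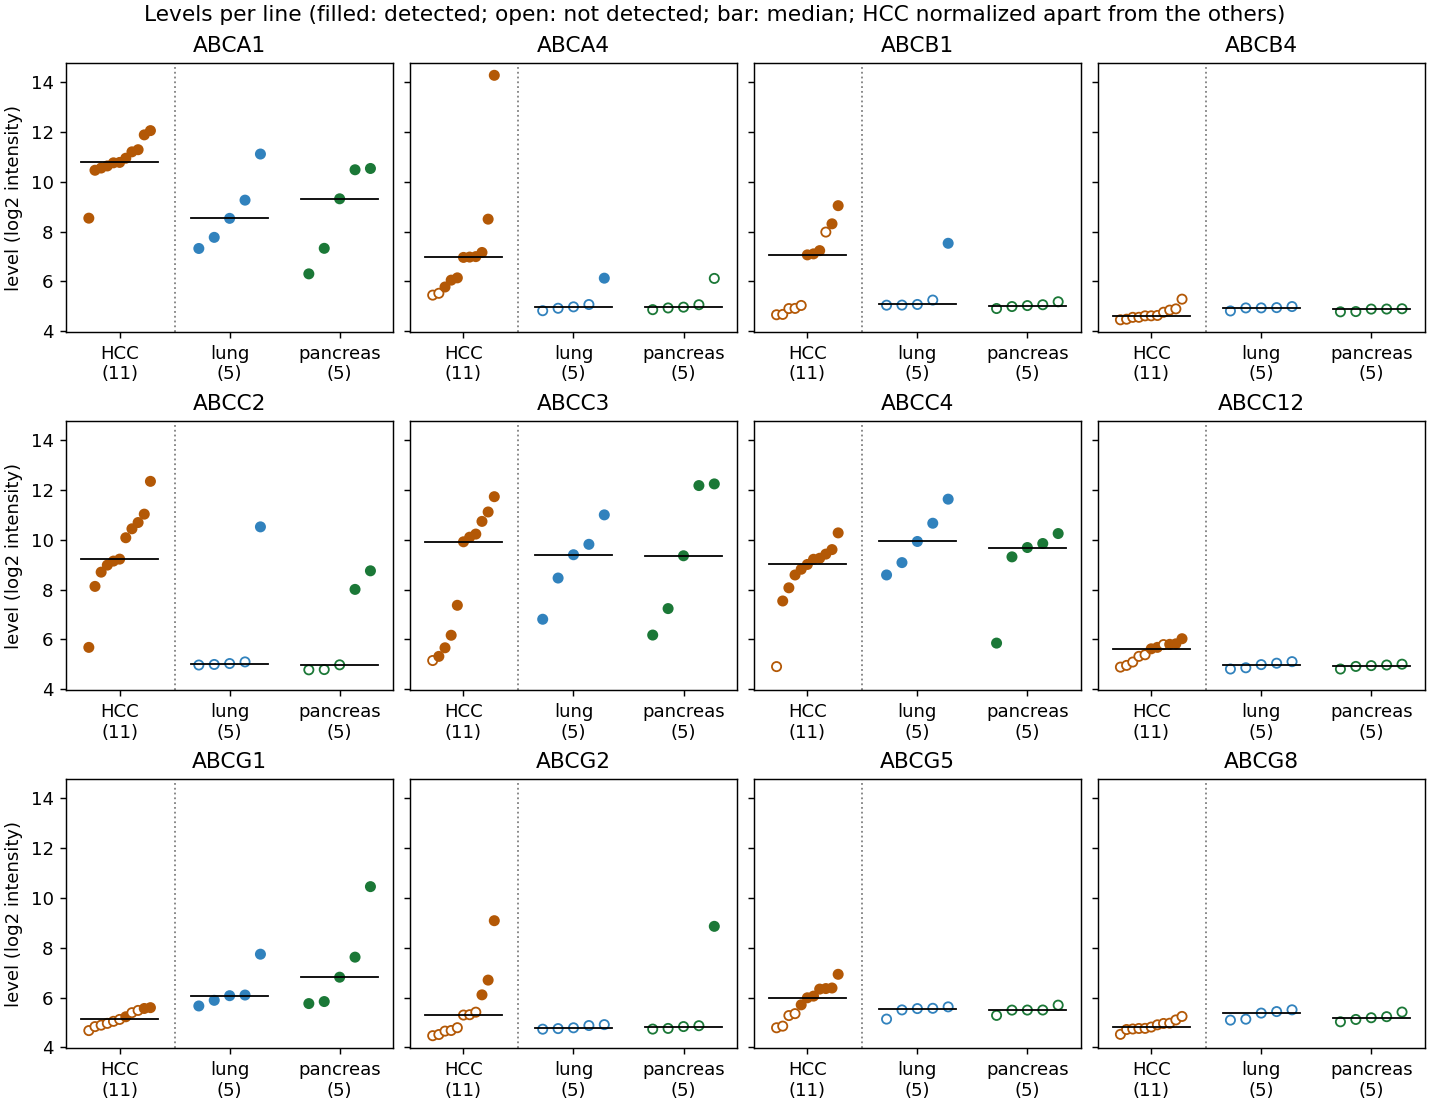
Level (vertical axis, log2 intensity) of 12 ABC genes in each of 11 HCC, 5 lung and 5 pancreatic lines, with filled points for detected lines, open points for undetected ones and bars for group medians; the HCC lines were normalized apart from the others. ABCC2 is filled in all HCC lines and in 3 of 10 others, while ABCB4 and ABCG8 are open throughout.

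In subfamily C, the basolateral pump ABCC3 was detected in 20 lines and varied widely in each tissue. HCC lines ran from 5.16 in Hep3B (detection p = 0.09), 5.32 in SNU-739 and 5.67 in HLF over a median of 9.91 to 11.11 in JHH-4 and 11.72 in Huh-1. Lung lines ran from 6.81 in Calu-3 to 10.99 in Calu-1, and pancreatic lines from 6.18 in Capan-2 to 12.23 in AsPC-1 and 12.17 in Capan-1. The groups overlapped throughout, with a log2 difference of 0.06 (SE 0.99) between HCC and the others (limma, adjusted p = 0.975). ABCC3 was detected in all 10 lung and pancreatic lines, ABCC2 in 3 of them.

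ABCC4, which exports cyclic nucleotides and bile acids with glutathione, was detected in every line but Hep3B, where it stood at 4.91 (detection p = 0.25). The other HCC lines lay between 7.54 in SNU-739 and 10.27 in JHH-4. Lung lines lay between 8.59 in Calu-1 and 11.62 in Calu-3, and pancreatic lines between 9.31 in BxPC-3 and 10.25 in Capan-1, with AsPC-1 at 5.85 (detection p = 0.03). AsPC-1 was thus the lowest of these 10 lines in ABCC4 and the highest in ABCC3. ABCC1, a pump of glutathione conjugates, was detected in 7 HCC, 2 lung and 3 pancreatic lines and was highest at 7.91 in BxPC-3, 7.71 in Calu-1 and 7.68 in JHH-6. ABCC5, a nucleotide analogue pump, was detected in 10 HCC, 5 lung and 3 pancreatic lines and ran in HCC from 6.90 in JHH-6 to 10.47 in Hep3B. Neither was called, with log2 differences of 0.10 for ABCC1 and 0.64 for ABCC5 (limma, adjusted p = 0.861 and 0.271).

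ABCC12, a little studied member next to ABCC11 on chromosome 16, gave the smallest p-value of the family. It was detected in 5 HCC lines, from Huh-1 at 5.63 to SNU-475 at 6.03, with detection p-values from 0.0198 to 0.03, and in no other line. The remaining HCC lines lay between 4.89 in JHH-4 and 5.79 in Hep3B, and the lung and pancreatic lines between 4.81 and 5.11. These levels are near the background of both array designs, and on the separately normalized scale the groups overlapped. After joint normalization every HCC line lay above every other line. ABCC12 was called higher in HCC, at a log2 difference of 1.10 (limma, adjusted p = 0.000236). It was at least 1.62-fold higher, taking its undetected HCC lines at their own values. The log2 difference was 0.38 to 1.17 over 22 alternatives, all past the threshold. ABCC6, which is linked to the release of ATP from the liver, was detected in 2 HCC lines, Huh-1 at 6.99 and SNU-475 at 5.24, and in all 10 others, between 5.47 and 6.16. It has near-identical pseudogene copies, of which ABCC6P1 and ABCC6P2 are listed for the lung and pancreatic lines, so its signal may be shared with them and is uncertain.

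The sulfonylurea receptors ABCC8 and ABCC9 are regulatory subunits of ATP-sensitive potassium channels. ABCC8 was detected in Capan-2 alone, at 7.10, with all other lines at 5.30 or below. ABCC9 was detected in 7 HCC and 3 other lines, at levels of 4.99 to 6.16. Its channel partner KCNJ8 was detected in 9 lines, 6 of which, Calu-1, HLF, Huh-1, JHH-4, SNU-739 and SNU-886, were among the 10 with ABCC9. ABCC10 was detected in all 21 lines, ABCC11 in Hep3B alone at 5.95, and the pseudogene ABCC13 in 3 HCC lines at 5.12 to 5.30.

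Subfamily D serves peroxisomes, apart from ABCD4, which handles cobalamin in lysosomes. ABCD3, a main peroxisomal membrane protein, was detected in every line, from 7.30 in Hep3B over 8.54 to 9.96 in Huh-1 in HCC, from 8.49 to 9.68 in lung and from 9.25 to 10.02 in pancreatic lines. ABCD2 was detected in none and ABCD4 in SNU-475 and NCI-H1299. ABCE1, which splits ribosomes after translation, was detected in 20 lines, between 9.58 in SNU-475 and 11.79 in HLF in HCC and between 10.71 and 12.45 in the others. Its level of 5.00 in Hep3B (detection p = 0.47) alone gave its HCC range of 6.79, which was 2.19 without Hep3B. The translation factors ABCF1 and ABCF3 were detected in all lines, and ABCF1 had a narrow HCC range, from 11.03 in JHH-4 to 12.39 in PLC/PRF/5.

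In subfamily G, the sterol exporter subunit ABCG5 was detected in 7 HCC lines and in no other. The detected lines were PLC/PRF/5 at 6.93 (detection p = 0), SNU-886 at 6.38, SNU-475 at 6.36, Huh-1 at 6.34, SNU-423 at 6.06, HLF at 5.99 and JHH-6 at 5.71 (detection p = 0.03). The other 4 lay between 4.79 in Hep3B and 5.35 in JHH-4, lung lines between 5.13 and 5.63 and pancreatic lines between 5.28 and 5.69. The groups overlapped through the undetected HCC lines. Apart from PLC/PRF/5 the detected lines had detection p-values of 0.0066 to 0.03, near the background of the array. ABCG5 was called higher in HCC, at a log2 difference of 0.95 (limma, adjusted p = 0.0132). It was at least 1.89-fold higher, taking its undetected HCC lines at their own values. The call was lost in 5 of 22 alternatives, among them the sets normalized apart at a log2 difference of 0.34 and the deposited processed values at 0.11. It was also lost without Capan-2, Malme-3M and Calu-3 (limma, adjusted p = 0.0619). ABCG8, its obligate partner, read from the opposite strand out of the shared window printed above, was detected in none of the 7 lines nor in any other, with levels of 4.52 to 5.51 and detection p-values of 0.12 to 0.87.

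ABCG2, the breast cancer resistance protein, was detected in PLC/PRF/5 at 9.08, SNU-886 at 6.70 and JHH-6 at 6.11 among HCC lines and in AsPC-1 at 8.85 among the others. The undetected HCC lines lay between 4.47 and 5.41 and the undetected other lines between 4.73 and 4.91, so detection rested on few lines in each set. No lung line was detected. The log2 difference of 0.80 did not pass (limma, adjusted p = 0.35). ABCG4, a sterol transporter known from brain, was detected in SK-HEP-1, Hep3B and PLC/PRF/5 and in Calu-1, MIA-PaCa-2 and Capan-2, highest in Hep3B at 8.21. The raw signal behind that level was 226.92, against 231.09 in SK-HEP-1, whose level was 6.08.

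Within the 11 HCC lines the labels give no further grouping, so ranges are a description. Over the 34 members detected in at least 3 HCC lines the median range was 3.34 on the log2 scale, against 2.58 for all 15514 genes so detected. Without Hep3B it was 2.28 over 32 members against 1.85 for all genes. The widest ranges were those of ABCA4, ABCE1, ABCC2, ABCC3 and ABCB6, and without Hep3B those of ABCA4, ABCC2, ABCB6, ABCC3 and ABCG2. Huh-1 held the highest HCC level of ABCA4, ABCB1, ABCB6, ABCB10, ABCC2, ABCC3, ABCC6 and ABCD3. ABCF1, detected in all 11 HCC lines, had a range of 1.36.

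Lung and pancreatic lines share an array design and were compared on their own. Of the 47 members 27 were detected in at least 3 of these 10 lines, and none passed, where 0.0059% of all genes did, 1 gene of 16950. No member reached an unadjusted p under 0.05, which 3.64% of all genes did, and no member was called in any of 18 alternatives. The smallest p belonged to ABCB10, at 9.48 ± 0.83 in lung and 10.22 ± 0.34 in pancreatic lines (SD, n = 5 each), a log2 difference of -0.74 (SE 0.38) (limma, unadjusted p = 0.0823). ABCG1 stood at 6.29 ± 0.83 in lung and 7.29 ± 1.92 in pancreatic lines, and ABCC4 differed by 0.99 (SE 0.87). Neither passed (limma, unadjusted p = 0.26 and 0.282). Without AsPC-1 the log2 differences were -0.22 for ABCG1 and 0.20 for ABCC4, and without Calu-3 that of ABCC4 was 0.58.

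Other genes of these pathways were taken from fixed lists. Of 22 partner and regulator genes 17 were tested between HCC and the other lines, none was higher and 2 were lower, with a median log2 difference of 0.21. Among the lower was the retinoid receptor RXRB, at 9.15 ± 0.52 in HCC, 10.64 ± 0.67 in lung and 9.81 ± 0.47 in pancreatic lines (limma, adjusted p = 0.00323), a call lost against pancreatic lines alone (limma, adjusted p = 0.158). Of 13 bile salt and drug carriers outside the family, uptake and export carriers among them, 12 are listed, 7 were tested and 1 was higher, SLCO2B1, at 8.06 ± 2.31 in HCC against 5.51 ± 0.46 in lung and 5.36 ± 0.35 in pancreatic lines (limma, adjusted p = 0.013). That call was lost against lung or pancreatic lines alone and without Capan-2, Malme-3M and Calu-3 (limma, adjusted p = 0.0721, 0.0504 and 0.0554). The bile salt importer SLC10A1 was detected in no line. SLC51B, a subunit of a basolateral bile salt exporter, was detected in Huh-1 at 10.14 and PLC/PRF/5 at 11.46 only. Family genes under other names were the peptide pumps TAP1 and TAP2 and the chloride channel CFTR, all tested and none called. TAP1 was detected in all lines, between 9.10 and 13.70, TAP2 in all but Hep3B, and CFTR in 5 lines at 5.67 to 6.47.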

How the data were processed

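Total RNA of 21 lines was hybridised to Illumina BeadChips, 1 array per line. The authors used BeadStudio, per the submitters' processing notes. Software version, build and probe summary were not given in the sources used here. Each raw table gives an intensity per gene, not yet normalized, per the file headers. A detection p-value, deposited with every intensity, sets it against negative controls.

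A normal-exponential background correction took the mean and SD of the controls from median signals per detection p. An offset of 16 was added, and values were quantile normalized and taken to log2 (limma 3.58.1, R 4.3.3). The 11 HCC arrays and the 10 others, which differ in design, were normalized apart for levels; all 21 were normalized together on 28338 shared symbols for tests between them. Genes with a detection p under 0.05 in at least 3 lines entered limma's moderated test with Benjamini-Hochberg adjustment over all genes tested, at 0.05 and no minimum fold. Where a group had no detected line, the fold used for it the higher of the array's lowest detected signal and the gene's own value. Undetected lines of a group with any detected line kept their own values. The tests used each line's own value, so a p-value given with such a fold belongs to the unraised log2 difference. The fold is a lower bound only in that it allows for the detection limit of wholly undetected groups. Array precision is limited by their number. The code was tested on simulated data. Figures used matplotlib 3.10.9 in Python 3.11.15.

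The members and lists were chosen with earlier results of these data known. Genes given per line were a fixed list of transporters of liver, drugs and sterols, those called, the 5 most variable in each set of lines and the brightest of each subfamily. ABCA3, ABCA6, ABCB9, ABCC8, ABCC9, ABCF2 and ABCG4 were named after their values were seen. Alternatives changed the background, offset, scaling, source of values, detection filter, contrast and lines fitted, and the closing section gives their effect. A few members and listed genes enter the counts but are not reported here by name, and figures leave them out. LSD1 dependence of the lines was not analysed here.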

Additional observations from a re-analysis of the deposited data

Results flagged for a closer look

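In groups of 5 lines, 10 of the 35 pairs of gene and group examined held a line far from the other 4. Chance flags about 1 in 20 groups, but the genes examined include those chosen as most variable, and undetected lines lie close together near background, so the count is not read against that rate. Among lung lines, Malme-3M stood apart in ABCA2 at 7.73 (others 6.40 to 6.72), in ABCA4 at 6.13 (others 4.83 to 5.07) and in ABCC5 at 9.18 (others 8.55 to 8.63). NCI-H596 stood apart in ABCA13 at 10.57 (others 4.65 to 5.67) and in ABCG1 at 7.74 (others 5.66 to 6.10). NCI-H1299 did so in ABCB1 at 7.53 (others 5.05 to 5.25), and Calu-1 in ABCC2 at 10.51 (others 4.98 to 5.10).

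Among pancreatic lines all were AsPC-1, in ABCG2 at 8.85 (others 4.73 to 4.87), in ABCC6 at 6.16 (others 5.47 to 5.54) and in ABCC4, low at 5.85 (others 9.31 to 10.25). All 10 values were detected, and each rests on 1 array. The pseudogene ABCC6P2 was also highest in AsPC-1 among pancreatic lines, at 8.27 (others 6.10 to 6.81). Whether the ABCC6 signal is shared with it was not tested.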

How the results depend on the processing

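Calls rest on 1 array per line, and HCC differs from the others in array design as well as tissue. ABCC2 and ABCA1 passed in all 23 alternatives and ABCC12 in all 22 in which it was tested. The count of members higher in HCC lines, 6, was 3 with the deposited processed values, with a filter at detection p 0.01 over at least 5 lines, without Capan-2, Malme-3M and Calu-3, and against lung or pancreatic lines alone; without each single lung or pancreatic line it ran from 5 to 6. The count lower, 2, was 1 with no background correction, with an offset of 50 and without Capan-2, Malme-3M and Calu-3. It was 0 under the stricter detection filter, against lung lines alone and without Hep3B, Capan-2, Malme-3M and Calu-3, a setting chosen after seeing the data. It was 14 with the deposited processed values and with the sets normalized apart. Without each single lung or pancreatic line it ran from 1 to 3, at 1 without Calu-3, NCI-H596 or MIA-PaCa-2. Over all genes, 3397 called became 10231 with the processed values, 9544 with the sets normalized apart, 2258 without Capan-2, Malme-3M and Calu-3, 1717 under the stricter filter, and 1845 and 2166 against lung and pancreatic lines alone. Median scaling moved the median of all genes to -0.19 and gave 7 higher and 2 lower. The median HCC range, 3.34, was 2.01 with no background correction, 2.05 with the processed values and 2.28 without Hep3B. RXRB lost its call against pancreatic lines alone, and SLCO2B1 in 3 of 23 alternatives. Apart from the scaling and fewer lines or genes tested by construction, the cause of these changes was not tested. No paired analysis was possible because the labels match no line of 1 group with a line of another.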
